A study of Mus musculus with 14 samples.

Results

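Levels of 10 Kruppel-like factor mRNAs, Klf2, Klf3, Klf4, Klf5, Klf6, Klf7, Klf9, Klf10, Klf11 and Klf13, were described in mouse tumours 7 days after a local injection and in untreated tumours at day 0. The members were chosen by name, with day 7 against day 0 results of these same libraries known: each Ensembl gene ID of the deposited count table was given its GENCODE M21 symbol, and the 10 symbols picked 10 of 37409 rows. All 10 passed the filter on low counts, as did 17141 genes in all. The RNA came from subcutaneous tumours of C57BL/6 mice. The libraries form 4 groups, and each library is called here by its group and replicate number. The siPD-L1 tumours (n = 4) were taken on day 7 after an intratumoral injection of 2E'/PTX with an siRNA to PD-L1, the siNeg tumours (n = 4) on day 7 after 2E'/PTX with a negative control siRNA, and the D5W tumours (n = 3) on day 7 after 5% dextrose in water. The day 0 tumours (n = 3) were untreated. From the title of the series, 2E' is taken to be an immunoactive polymer and PTX paclitaxel. Injections were given at about 150 mm3.

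The labels name the tumour cells in different ways: the protocol names B16F10, a melanoma line of C57BL/6 origin, and the cell type field names CT26, a colon carcinoma line. Markers of the melanocyte lineage summed to 17125 to 20477 CPM in siPD-L1, 20080 to 21057 CPM in siNeg, 17038 to 20065 CPM in D5W and 18311 to 18986 CPM in day 0 libraries, where CPM is the count scaled to 1 M per library after TMM scaling. The 7 intestinal epithelial markers summed to 7.31 to 9.80 CPM in siPD-L1, 7.05 to 8.06 CPM in siNeg, 7.96 to 8.36 CPM in D5W and 7.74 to 9.21 CPM in day 0 libraries. Of these, Vil1, Lgals4 and Cdh1 had medians of 3.84, 2.08 and 2.06 CPM over the 14 libraries, and Epcam, Krt20, Cdx1 and Cdx2 had 0.052, 0.019, 0.016 and 0. The day 0 tumours were untreated, so time and injection cannot be told apart in any comparison with day 0. The labels do not state that each library came from a separate mouse, and p-values therefore measure the spread between these samples. Totals ran from 66.7 M to 84.4 M counts in siPD-L1, 68.5 M to 80.2 M in siNeg, 73.1 M to 85.9 M in D5W and 60.2 M to 75.3 M in day 0 libraries. On the first principal component the day 0 libraries lay at -27.6 to -23.4. D5W replicate 3 (30.6) and siPD-L1 replicate 1 (22.3) stood apart from the other day 7 libraries, which lay at -8.23 to 13.4. Cd274, which encodes PD-L1, averaged 17.5 ± 2.25 CPM in siPD-L1 and 24.9 ± 6.44 CPM in siNeg tumours (SD, n = 4 each), and the groups overlapped (log2 difference -0.50 ± 0.16, edgeR adjusted p = 0.515).

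Kruppel-like factors are transcription factors that bind GC-rich and CACCC-type DNA elements through zinc fingers at their C-terminal end. Their N-terminal parts differ and recruit different partners. Klf2, Klf4, Klf5, Klf6 and Klf7 belong to the branch that binds acetyltransferases, Klf3 to the branch that recruits the CtBP corepressor, and Klf9, Klf10, Klf11 and Klf13 to the branch that recruits the Sin3A corepressor. Several members are induced quickly by serum, stress, hormones or shear flow. In tumour tissue they can be expressed by the tumour cells and by vessels, leukocytes and stroma.

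In all 3 day 7 groups, Klf4, Klf11, Klf6, Klf2 and Klf9 were higher than at day 0. Klf4 rose most, by 12.4-fold in siPD-L1, 13.1-fold in siNeg and 17.9-fold in D5W tumours. Klf5 and Klf7 were higher in siNeg and D5W tumours and did not pass the threshold in siPD-L1 tumours. Klf3, Klf10 and Klf13 passed in none of the 3. Among the day 7 groups, 0 of 10 members passed in any comparison with edgeR's quasi-likelihood test on filtered genes. Klf3 passed as lower in siNeg than in D5W tumours with DESeq2 and with edgeR without the filter on low counts.

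**Figure D1:**
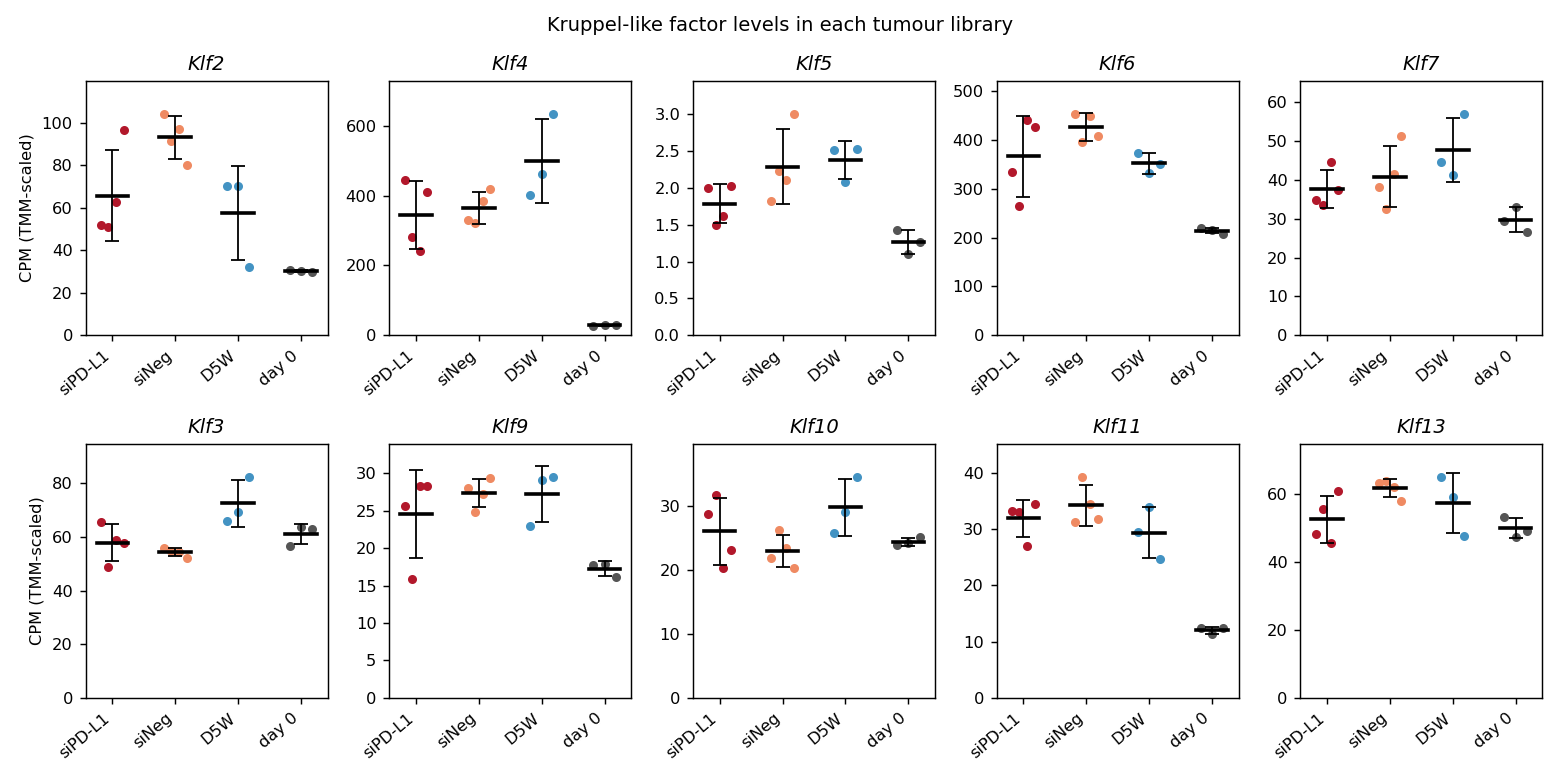
CPM of each member (vertical axes, each from 0) in every library of the siPD-L1, siNeg, D5W and day 0 groups; points are libraries, the horizontal bar is the group mean and the whiskers are 1 SD. The 3 day 0 libraries of Klf4 lie between 26.4 and 29.0 CPM and the 11 day 7 libraries between 240 and 634 CPM.

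The comparisons with day 0 all use the same 3 day 0 libraries, so their values are given side by side and are not independent. The members were chosen with results of these data known, and which values were used was not stated, so the differences from day 0 are a description without p-values for single members. Against day 0, 5 of 10 members passed an adjusted p of 0.05 as higher in siPD-L1 tumours, where 11.5% of all tested genes were called higher. In siNeg tumours 7 of 10 were called higher, against 10.5% of tested genes. In D5W tumours 7 of 10 were called higher, against 11.8%. None of the 10 was called lower in siPD-L1, siNeg or D5W tumours, beside 10.4%, 7.91% and 9.69% of tested genes. The median log2 difference of the members was 0.50 in siPD-L1, 0.76 in siNeg and 0.70 in D5W tumours, beside 0.014, 0.0065 and 0.0025 over all tested genes.

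By branch, the acetyltransferase-binding factors had 3 of 5 called higher in siPD-L1 and 5 of 5 in siNeg and D5W tumours. The Sin3A-binding factors had 2 of 4 called higher in each of the 3 day 7 groups, Klf9 and Klf11 in each case. The CtBP-binding Klf3 was called in none. The branches were set by textbook knowledge of their partners, after the values had been seen.

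**Figure D2:**
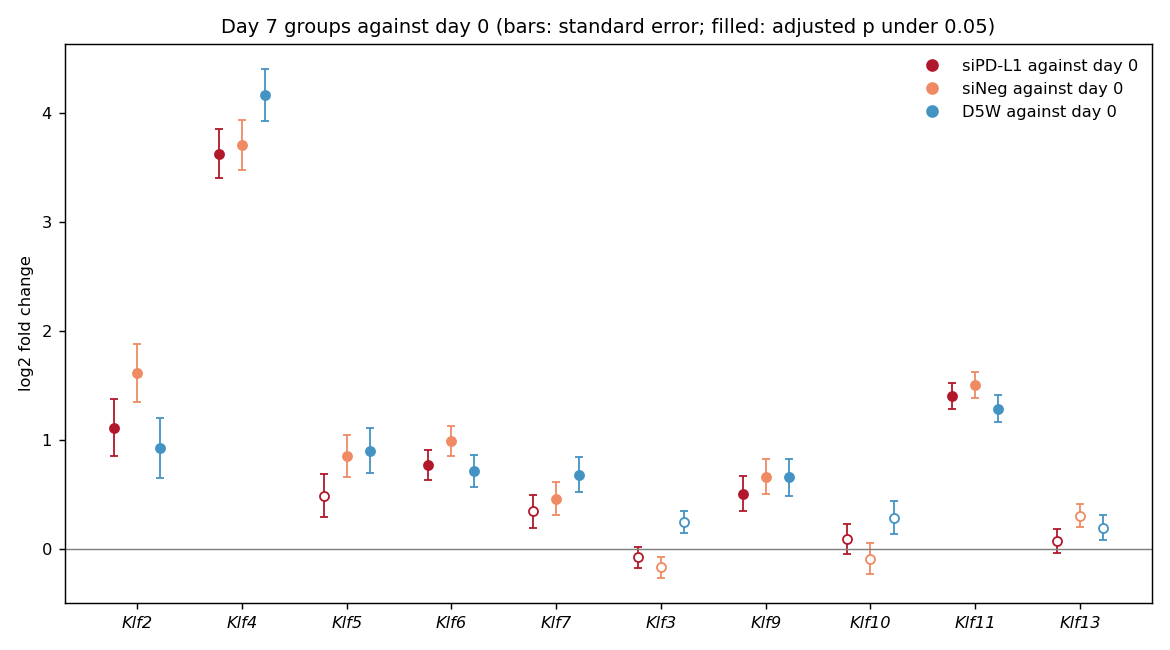
Log2 fold change of each member (vertical axis) against day 0 in siPD-L1, siNeg and D5W tumours, with bars of 1 standard error; filled points passed an adjusted p of 0.05 over all tested genes and open points did not. Klf4 stands between 3.63 and 4.16 and every other point is at 1.62 or below.

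Klf4 (ENSMUSG00000003032, chromosome 4, 55527143 to 55532466, minus strand, GRCm38) is a factor of epithelial differentiation, monocytes and vessel walls, and is known as a reprogramming factor. It reached 444, 283, 240 and 411 CPM in siPD-L1 tumours, 331, 322, 385 and 418 CPM in siNeg tumours and 401, 463 and 634 CPM in D5W tumours, against 26.4, 28.2 and 29.0 CPM at day 0. No day 7 library came near the day 0 range. Group means were 344 ± 98.2 CPM in siPD-L1, 364 ± 45.7 CPM in siNeg and 499 ± 121 CPM in D5W tumours, and 27.9 ± 1.34 CPM at day 0 (SD; n = 4, 4, 3 and 3). The log2 difference from day 0 was 3.63 ± 0.23 in siPD-L1, 3.71 ± 0.23 in siNeg and 4.16 ± 0.24 in D5W tumours (SE). By size of log2 fold change, Klf4 ranked 25 in siPD-L1, 17 in siNeg and 24 in D5W tumours among the 17141 tested genes. Under all alternative fits and with each library left out in turn the log2 difference was past the threshold and ran from 3.47 to 3.77 in siPD-L1, 3.62 to 3.81 in siNeg and 3.96 to 4.30 in D5W tumours.

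The stretch before the Klf4 start is printed because Klf4 had the highest fold of the members. It lies at chr4:55532476-55532725 on the minus strand of GRCm38.p6, from RefSeq, 5′ to 3′, and its GC content is 74%, within the 59.6% to 79.5% of the 7 members whose stretch was read, called or not. The median GC content over all mouse promoters was 52.4%, over 250 bases each, while the member stretches were 117 to 250 bases long. Capitals mark a CRE half-site (TGACG, read here on the opposite strand), the partial match to the site bound by CREB-type factors.
Klf4: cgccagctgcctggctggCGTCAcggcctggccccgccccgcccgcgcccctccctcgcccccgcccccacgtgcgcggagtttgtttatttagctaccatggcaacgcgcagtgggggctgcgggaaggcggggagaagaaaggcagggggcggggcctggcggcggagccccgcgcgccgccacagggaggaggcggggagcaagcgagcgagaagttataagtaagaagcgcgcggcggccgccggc
This half-site lies 232 to 228 bases before the RefSeq start. Such a half-site was found in 4 of the 8 members with a promoter in the table, Klf2, Klf4, Klf9 and Klf13, and in 17.8% of 32841 mouse promoters of the same 250 bases. A match of letters is a description and not a site shown to be used.

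Klf6 (ENSMUSG00000000078, chromosome 13, 5861482 to 5870394, plus strand) is a widely expressed factor induced after injury and a candidate tumour suppressor in several human cancers. It stood at 334, 264, 440 and 427 CPM in siPD-L1 tumours, 452, 395, 448 and 408 CPM in siNeg tumours and 373, 332 and 351 CPM in D5W tumours, against 219, 216 and 208 CPM at day 0. All 11 day 7 libraries were above the day 0 libraries. The log2 difference from day 0 was 0.77 ± 0.14 in siPD-L1, 0.99 ± 0.14 in siNeg and 0.72 ± 0.14 in D5W tumours, and these calls held in every alternative fit. Between the day 7 groups, all 4 siNeg libraries were above all 3 D5W libraries by a log2 difference of 0.28 ± 0.13, which did not pass the threshold (edgeR adjusted p = 0.349). The fold over day 0 was smaller than that of Klf4.

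The Klf6 stretch is printed because it holds 4 CCAAT boxes, shown in capitals on either strand (CCAAT or ATTGG), the motif bound by NF-Y. It lies at chr13:5861239-5861481 on the plus strand of GRCm38.p6, from RefSeq, with 64.2% GC, and the last of the 4 boxes ends 74 bases before the RefSeq start.
Klf6: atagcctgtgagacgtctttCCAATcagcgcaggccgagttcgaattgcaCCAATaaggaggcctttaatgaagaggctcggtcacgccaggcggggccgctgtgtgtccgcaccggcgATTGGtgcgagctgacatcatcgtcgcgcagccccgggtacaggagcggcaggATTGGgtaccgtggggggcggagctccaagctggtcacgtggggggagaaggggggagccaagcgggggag

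Klf2 (ENSMUSG00000055148, chromosome 8, 72319033 to 72321656, plus strand) is induced by shear flow in endothelial cells and keeps naive T cells quiescent and in circulation. It reached 51.9, 51.1, 62.7 and 96.7 CPM in siPD-L1 tumours, 104, 91.2, 96.8 and 80.2 CPM in siNeg tumours and 70.3, 70.3 and 32.0 CPM in D5W tumours, against 30.9, 30.3 and 29.9 CPM at day 0. The day 0 libraries were tightly grouped, and D5W replicate 3 was only just above them. The siNeg libraries were all above the D5W libraries, and siPD-L1 replicate 4 fell within the siNeg range. The log2 difference from day 0 was 1.11 ± 0.26 in siPD-L1, 1.62 ± 0.27 in siNeg and 0.92 ± 0.27 in D5W tumours. The D5W call held in 7 of 16 alternative fits. It was lost with library totals, with no low-count filter, with only the 2 groups fitted, with a replicate block, without D5W replicate 1, without D5W replicate 2 and without any 1 of the 3 day 0 libraries, with log2 differences of 0.75 or more. Without D5W replicate 3 it was 1.21 and remained past the threshold.

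Endothelial markers (8 of 8 genes passed the filter) summed to 51.0 to 70.5 CPM in siPD-L1, 47.2 to 60.5 CPM in siNeg and 49.9 to 71.1 CPM in D5W tumours, against 29.9 to 39.7 CPM at day 0. Vwf was the largest part of this sum (mean 35.8 CPM), ahead of Cdh5 (5.51 CPM) and Pecam1 (4.77 CPM). Vwf averaged 39.4, 39.9 and 38.4 CPM in siPD-L1, siNeg and D5W tumours, against 22.9 CPM at day 0. Cdh5 averaged 6.40, 3.67 and 8.95 CPM, against 3.35 CPM at day 0. Of the 8 endothelial genes, 2 were called higher in siPD-L1, 1 in siNeg and 4 in D5W tumours against day 0, and none was at 0 in any library. Over all tested genes, 11.5%, 10.5% and 11.8% were called higher. The median log2 difference of the 8 genes from day 0 was 0.79, 0.27 and 0.98 in the same order of groups. D5W replicate 3, with the lowest Klf2 of the day 7 libraries, had an endothelial sum of 70.0 CPM. Across the 11 day 7 libraries, which share their groups, the members had Pearson's r with the endothelial sum from -0.64 for Klf2 to 0.67 for Klf10. The part of endothelial content in the differences from day 0 was not tested, and in bulk tissue fewer cells of a type and less RNA per cell cannot be told apart. T cell markers summed to 5.48 to 7.89 CPM in siPD-L1, 6.22 to 10.4 CPM in siNeg, 5.87 to 9.53 CPM in D5W and 6.17 to 7.35 CPM in day 0 libraries, which overlap. Lck was the largest part of this sum (mean 4.26 CPM), and no other T cell marker averaged above 0.734 CPM. Lck averaged 3.63, 4.27 and 4.12 CPM in siPD-L1, siNeg and D5W tumours, against 5.21 CPM at day 0. The median log2 difference of the 8 T cell markers from day 0 was 0.60, 0.95 and 0.48. Of them, 1 was called lower in siPD-L1 and 1 higher in siNeg tumours. Keratinocyte markers, for an epithelium in which Klf4 is prominent, summed to at most 0.816 CPM in any library.

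The Klf2 stretch is printed because Klf2 alone of the 8 matched members held a MEF2 site, the motif through which the ERK5 kinase pathway is known to act on this gene. It lies at chr8:72318812-72319032 on the plus strand of GRCm38.p6, from RefSeq, with 71.5% GC. Capitals mark the CRE half-site near its beginning and then the MEF2 match, 118 to 109 bases before the RefSeq start.
Klf2: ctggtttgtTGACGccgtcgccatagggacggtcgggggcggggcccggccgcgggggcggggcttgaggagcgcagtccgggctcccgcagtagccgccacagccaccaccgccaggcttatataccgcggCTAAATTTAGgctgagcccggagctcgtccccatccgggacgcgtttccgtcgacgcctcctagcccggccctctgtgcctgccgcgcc
A MEF2 match was present in 2.92% of all promoters. No match says only that the letters are not in the window.

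Klf5 (ENSMUSG00000005148, chromosome 14, 99298691 to 99315036, plus strand), a factor of proliferating epithelium and smooth muscle, was the lowest of the members. Its values were 1.99, 1.50, 1.62 and 2.02 CPM in siPD-L1 tumours, 1.82, 2.23, 2.11 and 3.00 CPM in siNeg tumours and 2.52, 2.08 and 2.53 CPM in D5W tumours, against 1.43, 1.10 and 1.27 CPM at day 0. All day 7 libraries were above day 0, and the 4 siPD-L1 libraries were below the 3 D5W libraries. The log2 difference from day 0 was 0.49 ± 0.19 in siPD-L1, which did not pass the threshold, 0.85 ± 0.19 in siNeg and 0.90 ± 0.20 in D5W tumours. That siPD-L1 was not called does not show that it differed from the other 2 groups: its log2 difference was -0.36 ± 0.17 from siNeg (edgeR adjusted p = 0.586) and -0.41 ± 0.19 from D5W (edgeR adjusted p = 0.593).

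Klf7 (ENSMUSG00000025959, chromosome 1, 64029447 to 64122282, minus strand), a factor of neuronal development, stood at 35.0, 33.6, 44.7 and 37.5 CPM in siPD-L1 tumours, 38.1, 32.5, 41.5 and 51.2 CPM in siNeg tumours and 44.7, 41.3 and 57.0 CPM in D5W tumours, against 29.4, 33.1 and 26.7 CPM at day 0. The siNeg libraries overlapped with day 0, although siNeg passed the threshold. Log2 differences from day 0 were 0.34 ± 0.15 in siPD-L1, not called, 0.46 ± 0.15 in siNeg and 0.68 ± 0.16 in D5W tumours. The siNeg call was near the threshold and held in 6 of 17 alternative fits. Without D5W replicate 3 and siPD-L1 replicate 1, the D5W difference was 0.54 and was no longer called. Gm13748 and Gm26649 lie on the opposite strand and overlap Klf7, and with no strand setting given for the counting their reads cannot be told apart from its own.

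Klf11 (ENSMUSG00000020653, chromosome 12, 24651274 to 24662789, plus strand) is a TGF-beta-inducible repressor of the Sin3A branch. Its values were 33.2, 33.0, 27.0 and 34.5 CPM in siPD-L1 tumours, 31.3, 39.3, 34.4 and 31.8 CPM in siNeg tumours and 29.5, 33.9 and 24.7 CPM in D5W tumours, against 12.4, 11.3 and 12.5 CPM at day 0. The 3 day 7 groups overlapped with each other, and none overlapped with day 0. The log2 difference from day 0 was 1.40 ± 0.12 in siPD-L1, 1.51 ± 0.12 in siNeg and 1.29 ± 0.12 in D5W tumours, and was called in every alternative fit. The Klf11 stretch is printed beside that of Klf6 because it also holds CCAAT boxes, 2 on the opposite strand (ATTGG, in capitals). It lies at chr12:24651121-24651273 on the plus strand of GRCm38.p6, from RefSeq, with 75.8% GC.
Klf11: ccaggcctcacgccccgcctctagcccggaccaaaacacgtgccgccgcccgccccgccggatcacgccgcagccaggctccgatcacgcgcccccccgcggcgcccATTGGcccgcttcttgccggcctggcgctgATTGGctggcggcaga
CCAAT was found in 4 of the 8 matched members, Klf6, Klf9, Klf11 and Klf13, and in 33.9% of all promoters. The GC box GGGCGG, of the kind this family and Sp1 bind, was found in 7 of 8 (all but Klf9) and in 32.7% of all promoters, and the CACCC box CCACCC in 4 of 8 (Klf2, Klf3, Klf7 and Klf13) and in 28.1%. None of the 8 held the full CRE TGACGTCA (1.55% of promoters), the AP-1 site TGACTCA (4.46%), the CArG box of SRF (1.47%), the palindromic glucocorticoid response element (0.00913%) or TATAAA (12.4%). Both strands were searched over 250 bases before the RefSeq start, and the GC box and CACCC box can overlap where C and G runs are long. For Klf7 this whole window lies inside the gene as annotated in GENCODE M21, so no stretch of it was read. For Klf2, Klf3, Klf6 and Klf11 the end of the window lies inside the gene. Matches in those parts are before the RefSeq start and not before the GENCODE start. The median GC content over all promoters, each of 250 bases, was 52.4%, beside 59.6% to 79.5% in the member stretches that were read. Those stretches were cut to lie before both annotated starts and were 117 to 250 bases long, so the windows differ. The part of GC content in the shares of members with a motif was not tested.

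Klf9 (ENSMUSG00000033863, chromosome 19, 23141226 to 23168134, plus strand) is induced by glucocorticoid and thyroid hormones. It stood at 25.7, 15.9, 28.3 and 28.3 CPM in siPD-L1 tumours, 28.0, 24.8, 27.3 and 29.4 CPM in siNeg tumours and 22.9, 29.2 and 29.5 CPM in D5W tumours, against 17.8, 17.9 and 16.1 CPM at day 0. siPD-L1 replicate 2 lay below the day 0 range and the other 10 day 7 libraries above it. Log2 differences from day 0 were 0.51 ± 0.16 in siPD-L1, 0.66 ± 0.16 in siNeg and 0.66 ± 0.17 in D5W tumours. The siPD-L1 call held in 6 of 17 alternative fits, with log2 differences of 0.43 to 0.67 over the 17. It was lost without siPD-L1 replicate 1, 3 or 4 and held without siPD-L1 replicate 2. Without siPD-L1 replicate 1 and D5W replicate 3, the differences were 0.49 in siPD-L1 and 0.59 in D5W tumours, and neither was called.

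Klf3 (ENSMUSG00000029178, chromosome 5, 64803388 to 64832901, plus strand), a repressor studied in erythroid and fat cells, was called against day 0 in no group. It had 65.6, 48.9, 58.9 and 57.8 CPM in siPD-L1 tumours, 56.0, 54.7, 54.3 and 52.2 CPM in siNeg tumours and 65.7, 69.2 and 82.3 CPM in D5W tumours, against 56.6, 63.7 and 62.8 CPM at day 0. All siNeg and siPD-L1 libraries were below the D5W libraries, and the siNeg libraries were also below day 0. Against day 0 the log2 difference was -0.08 ± 0.09 in siPD-L1, -0.17 ± 0.09 in siNeg and 0.25 ± 0.10 in D5W tumours, and none of the 3 passed the threshold. With the trend over GC content and length of the transcripts removed, the differences were -0.31, -0.34 and -0.02, and the first 2 were called lower. An opposite-strand gene, Gm20033, overlaps Klf3 and limits these values in the same way as for Klf7.

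Klf10 and Klf13 passed the threshold in none of the 6 comparisons. Klf10 (ENSMUSG00000037465, chromosome 15, 38291463 to 38300706, minus strand), a TGF-beta-inducible early gene, ranged from 20.4 to 31.8 CPM in siPD-L1, 20.3 to 26.3 CPM in siNeg and 25.7 to 34.6 CPM in D5W tumours, and from 23.9 to 25.1 CPM at day 0. Its log2 differences from day 0 were 0.09 ± 0.14, -0.09 ± 0.14 and 0.29 ± 0.15 in siPD-L1, siNeg and D5W tumours. Klf13 (ENSMUSG00000052040, chromosome 7, 63886351 to 63938915, minus strand), a regulator of Ccl5 in T cells, ranged from 45.4 to 60.7 CPM in siPD-L1, 57.8 to 63.8 CPM in siNeg and 47.6 to 64.9 CPM in D5W tumours, and from 47.4 to 53.1 CPM at day 0. Its log2 differences were 0.07 ± 0.11, 0.31 ± 0.11 and 0.20 ± 0.12 in the same order of groups, and siNeg was called in 4 of 17 alternative fits. The opposite-strand genes E030018B13Rik and Gm27252 overlap Klf13.

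Per length of transcript (RPKM, CPM per kilobase of exon), the order of the members differed between day 7 and day 0. In siPD-L1 tumours the order began with Klf4 at 113 ± 32.2 RPKM and Klf6 at 83.4 ± 18.9 RPKM, which overlapped, and Klf2 at 35.5 ± 11.6 RPKM. In siNeg tumours it was Klf4 at 119 ± 15.0, Klf6 at 97.0 ± 6.58 and Klf2 at 50.4 ± 5.45 RPKM, and in D5W tumours Klf4 at 164 ± 39.5, Klf6 at 80.1 ± 4.72 and Klf2 at 31.1 ± 11.9 RPKM, with no overlap between neighbours in either group. At day 0 the order was Klf6 at 48.8 ± 1.33, Klf2 at 16.4 ± 0.264 and Klf4 at 9.13 ± 0.438 RPKM. The next 6 members lay between 4.63 and 7.35 RPKM in siPD-L1, 4.83 and 8.19 RPKM in siNeg, 5.65 and 7.59 RPKM in D5W and 2.78 and 6.62 RPKM in day 0 means. Klf13 was the highest of these 6 in siNeg, D5W and day 0 tumours and Klf11 in siPD-L1 tumours. In siPD-L1 and D5W tumours all neighbours among the 6 overlapped. In siNeg tumours only Klf11 and Klf9 did not, and at day 0 only Klf7 and Klf9 overlapped. Klf5 was last in every group, at 0.343 ± 0.0504, 0.440 ± 0.0971, 0.457 ± 0.0495 and 0.244 ± 0.0313 RPKM in siPD-L1, siNeg, D5W and day 0 tumours.

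**Figure D3:**
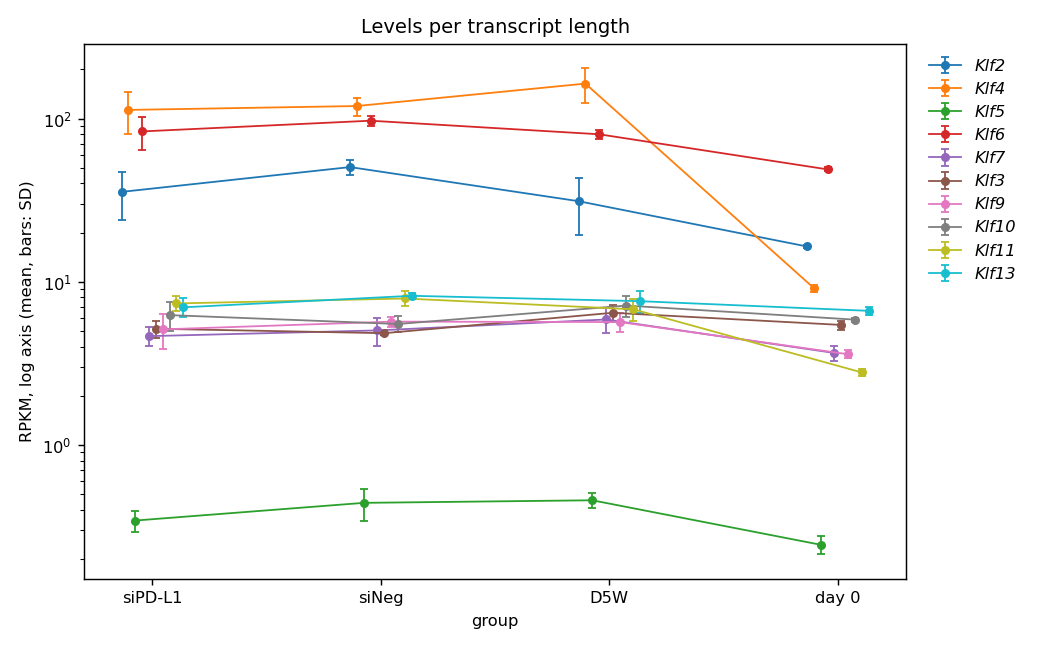
Mean RPKM of each member on a log axis in siPD-L1, siNeg, D5W and day 0 tumours, with bars of 1 SD; lines only join the points of a gene and mark no course in time. Klf4 lies first in the 3 day 7 groups and, at day 0, below Klf6 and Klf2.

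The ratio of Klf4 to Klf6 per length was 1.92, 1.54, 0.786 and 1.39 in the siPD-L1 libraries, 1.05, 1.17, 1.24 and 1.48 in the siNeg libraries and 1.55, 2.01 and 2.60 in the D5W libraries, against 0.173, 0.188 and 0.201 at day 0. Klf4 exceeded Klf6 in 10 of 11 day 7 libraries, siPD-L1 replicate 3 being the exception, and in no day 0 library. Klf4 made up 24.8% to 41.6% of the summed CPM of the 10 members in siPD-L1, 29.3% to 36.3% in siNeg and 36.5% to 49.0% in D5W libraries, against 5.60% to 6.30% at day 0. The summed CPM of the members was 818 to 1178 in siPD-L1, 1052 to 1176 in siNeg and 1101 to 1295 in D5W libraries, against 460 to 473 at day 0.

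The comparisons among the 3 day 7 groups address what the treatment added to injection of dextrose water, and what siPD-L1 added to siNeg. In siPD-L1 against siNeg tumours, 0 of 10 members passed an adjusted p of 0.05, beside 0% of tested genes. In siPD-L1 against D5W tumours 0 of 10 passed, beside 0.0292% of tested genes, and in siNeg against D5W tumours 0 of 10, beside 0.105%. At an unadjusted p under 0.05 there were 1, 4 and 4 members in these 3 comparisons, beside 8.58%, 8.02% and 14.9% of tested genes. DESeq2's Wald test called 0, 0 and 1, beside 0.415%, 1.11% and 2.80% of the genes it tested. The 1 was Klf3, lower in siNeg than in D5W tumours (DESeq2 adjusted p = 0.00704, edgeR adjusted p = 0.093). The edgeR fit with no low-count filter also called Klf3 there (edgeR adjusted p = 0.0362), beside 0.227% of its genes. With 1 library left out the edgeR adjusted p for Klf3 ran up to 0.22.

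The sizes and intervals of the day 7 differences were as follows. In siPD-L1 against siNeg tumours, 8 of 10 members had a value below 0, with a median log2 difference of -0.14 (all genes -0.0094). Klf2 had the largest of these at -0.51 ± 0.23, with a 95% confidence interval of -1.01 to 0.00053 (edgeR adjusted p = 0.582), and Klf13 had -0.23 ± 0.10 (edgeR adjusted p = 0.555). Klf4 differed by -0.08 ± 0.18, with an interval of -0.47 to 0.31. No member's libraries were fully separated between siPD-L1 and siNeg, where 5.74% of tested genes were.

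In siPD-L1 against D5W tumours, Klf4 differed by -0.54 ± 0.19, with an interval of -0.95 to -0.12 before adjustment (edgeR adjusted p = 0.46). Klf3 differed by -0.33 ± 0.09 (edgeR adjusted p = 0.273), and Klf3 and Klf5 were the 2 of 10 members whose groups did not overlap, both lower, beside 5.74% of tested genes in either direction. In siNeg against D5W tumours, Klf3 differed by -0.42 ± 0.09, Klf4 by -0.46 ± 0.19 (edgeR adjusted p = 0.298), Klf10 by -0.38 ± 0.14 (edgeR adjusted p = 0.25) and Klf2 by 0.69 ± 0.26 (edgeR adjusted p = 0.254). Klf2 and Klf6 were fully separated as higher and Klf3 as lower, 3 of 10 members beside 14.3% of tested genes. D5W replicate 3, which stood apart, had the highest Klf4 and Klf3 and the lowest Klf2 of its group. Without it the Klf2 difference between siNeg and D5W was 0.41 (edgeR adjusted p = 0.639).

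Markers of stroma and myeloid cells also differed between libraries. The 7 fibroblast markers summed to 60.7 to 321 CPM in siPD-L1 and 59.2 to 158 CPM in siNeg libraries, against 545, 102 and 829 CPM in the 3 D5W libraries. The collagens Col3a1, Col1a1 and Col1a2 were the largest parts of this sum (means 82.0, 67.9 and 44.7 CPM). No other fibroblast marker averaged above 8.11 CPM, the mean of Pdgfrb. Pdgfrb averaged 7.24, 8.20 and 8.23 CPM in siPD-L1, siNeg and D5W tumours. Of the 7 markers, 0 were called in any comparison among day 7 groups. Over the 11 day 7 libraries the fibroblast sum had r = 0.75 with Klf3, 0.66 with Klf4 and 0.62 with Klf10. The 8 macrophage and monocyte markers were at 34.6 to 88.8 CPM in siPD-L1, 46.4 to 114 CPM in siNeg and 66.1 to 119 CPM in D5W libraries. Their sum had r = 0.80 with Klf10. With the other marker sums except the melanocyte lineage, Klf10 also had a positive r, from 0.16 (erythroid) to 0.68 (intestinal epithelium). With the melanocyte lineage sum, r ran from -0.80 for Klf10 to 0.81 for Klf2, and was 0.74 for Klf6. Itgam, a macrophage and monocyte marker, was at 0 in all 14 libraries. The part of fibroblast, macrophage and melanocyte lineage content in the differences of the members from D5W was not tested.

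**Figure D4:**
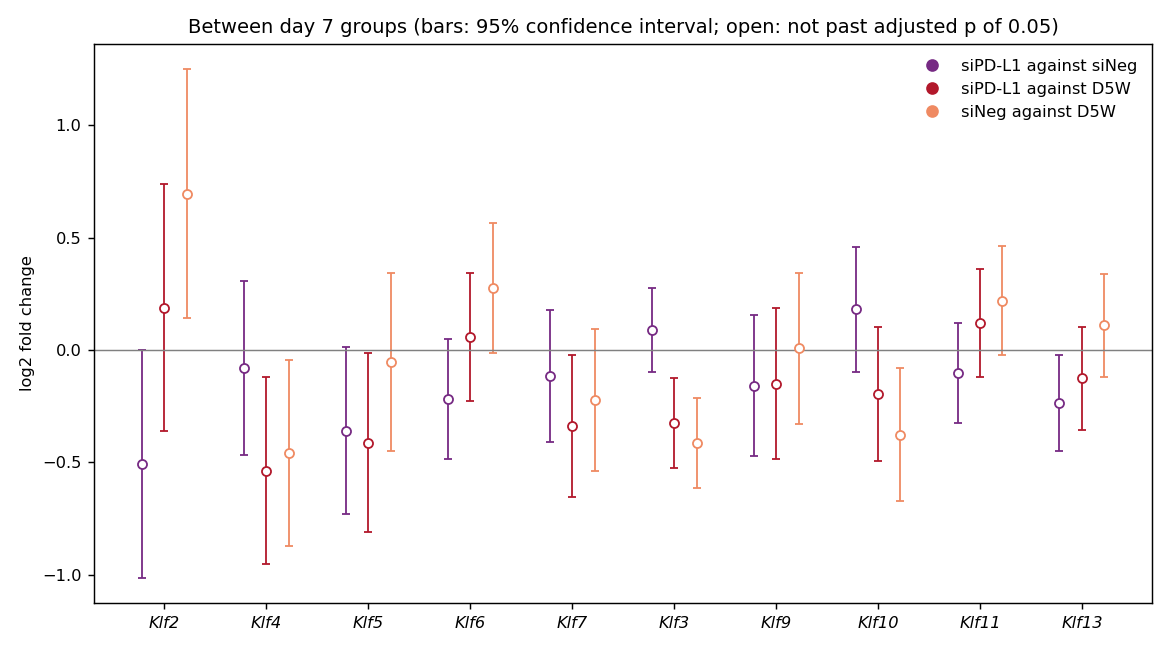
Log2 fold change of each member (vertical axis) between day 7 groups, siPD-L1 against siNeg, siPD-L1 against D5W and siNeg against D5W, with bars of the 95% confidence interval; open points did not pass an adjusted p of 0.05. Values lie between -0.54 and 0.69 and all points are open.

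Over the 11 day 7 libraries the members did not vary as 1 group. Of 45 pairs, 23 had a positive Pearson correlation of log2 CPM, 12 were over 0.5, and the median was 0.0024. The highest was between Klf2 and Klf13 (r = 0.75) and the next between Klf3 and Klf4 (r = 0.73). The lowest was between Klf6 and Klf10 (r = -0.81), followed by Klf7 and Klf11 (r = -0.77). These libraries share groups and scaling, and the correlations are a description. The genes most like a member over these 11 libraries, by Pearson correlation of log2 CPM among genes with a mean of at least 1 CPM, were Pmel (r = 0.98), Sun2 (0.97) and Rhpn1 (0.97) for Klf2, and Map3k14 (0.93) was among those of Klf4. They included Kat2b (0.94) and Mreg (0.94) for Klf6, and were Pax3 (0.96), Tgfb3 (0.96) and Fez1 (0.95) for Klf9. By Spearman's rank correlation, Pax3, Tgfb3 and Fez1 had 0.79, 0.84 and 0.71 with Klf9, whose level in siPD-L1 replicate 2 was far below the others. Kat2b and Mreg had 0.85 and 0.84 with Klf6, Map3k14 had 0.86 with Klf4, and Pmel had 0.95 with Klf2. Pmel encodes a melanosome protein and Pax3 a melanocyte lineage factor.

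**Figure D5:**
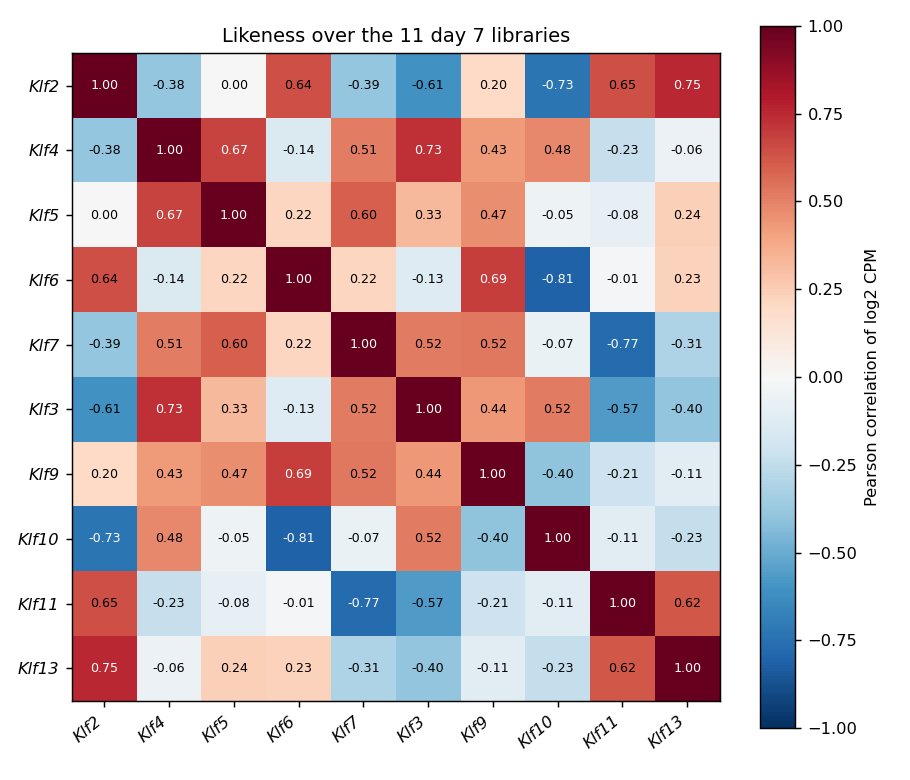
Pearson correlation of log2 CPM (colour and printed value) for each pair of members over the 11 day 7 libraries, members in the same order on both axes. Values run from -0.81 for Klf6 with Klf10 to 0.75 for Klf2 with Klf13.

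Of the other family genes, 7 were in the table and 5 passed the filter. Against day 0, 0 of these 5 were called higher and 1 lower in siPD-L1 tumours. In siNeg tumours 1 was higher and 1 lower, and in D5W tumours 0 higher and 2 lower. Over all tested genes, 11.5%, 10.5% and 11.8% were called higher and 10.4%, 7.91% and 9.69% lower. The median log2 differences of the 5 were -0.35, -0.061 and -0.36, unlike those of the 10 members. Klf15, a glucocorticoid-induced regulator of metabolism in liver and muscle, fell in all 3 groups: it averaged 13.99 ± 1.85 CPM in siPD-L1, 16.9 ± 2.26 CPM in siNeg and 14.7 ± 2.74 CPM in D5W tumours, against 24.2 ± 0.481 CPM at day 0. Its log2 differences were -0.79 ± 0.13, -0.52 ± 0.13 and -0.72 ± 0.14 (edgeR adjusted p = 0.00136, 0.0154 and 0.00411). Klf1, the erythroid factor, averaged 0.511 ± 0.117 CPM in siPD-L1, 0.464 ± 0.0784 CPM in siNeg and 0.407 ± 0.144 CPM in D5W tumours, against 0.783 ± 0.0744 CPM at day 0, and passed as lower in D5W tumours (-0.94 ± 0.28, edgeR adjusted p = 0.029). Erythroid markers summed to 42.9 to 350 CPM in siPD-L1, 9.12 to 90.9 CPM in siNeg and 10.3 to 158 CPM in D5W tumours, against 127 to 985 CPM at day 0, and their part in the Klf1 values was not tested. Klf8 passed as higher in siNeg tumours (0.57 ± 0.19, edgeR adjusted p = 0.0499), and Klf12 and Klf16 in none. Klf14 and Klf17 were near 0 and were not tested. Of the related Sp factors, Sp1 rose by 0.26 ± 0.06, 0.30 ± 0.06 and 0.23 ± 0.07 and Sp4 by 0.35 ± 0.08, 0.28 ± 0.08 and 0.43 ± 0.08 in siPD-L1, siNeg and D5W tumours, and Sp2, Sp3 and Sp6 passed in none.

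Some genes that act on these factors were called against day 0. Of 12 regulators, 2 were called higher and 1 lower in siPD-L1, 2 higher and 0 lower in siNeg and 5 higher and 1 lower in D5W tumours, against day 0. Over all tested genes, 11.5%, 10.5% and 11.8% were called higher and 10.4%, 7.91% and 9.69% lower. The median log2 difference of the regulators was 0.11, 0.22 and 0.16, beside 0.014, 0.0065 and 0.0025 over all tested genes. The regulators named below were picked for the smallest p in D5W against day 0. Their adjusted p in that comparison is therefore a description and not a test. Mapk7, which encodes ERK5, the kinase upstream of MEF2 and Klf2, averaged 28.3 ± 2.76 CPM in siPD-L1, 31.1 ± 0.972 CPM in siNeg and 26.7 ± 3.53 CPM in D5W tumours, against 35.7 ± 0.489 CPM at day 0. It fell by 0.33 on the log2 scale in siPD-L1 (edgeR adjusted p = 0.0179) and by 0.42 in D5W tumours (edgeR adjusted p = 0.00932), and the siNeg difference was not called (-0.20 ± 0.09). Map3k3, an activator of the same cascade, rose in D5W tumours by 0.40 ± 0.10 (edgeR adjusted p = 0.0134), and Fbxw7, a ubiquitin ligase subunit that targets Klf5 and Klf2, by 0.42 ± 0.12 (edgeR adjusted p = 0.0246). Mef2d, a MEF2 factor, rose by 0.33 ± 0.10 in siNeg and 0.40 ± 0.10 in D5W tumours and differed by 0.28 ± 0.10 in siPD-L1 tumours (edgeR adjusted p = 0.0293, 0.0162 and 0.0529).

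Of 8 cofactor genes, 2 were called higher in siPD-L1, 3 in siNeg and 2 in D5W tumours, and none lower, with medians of 0.092, 0.0045 and 0.032. Over all tested genes, 11.5%, 10.5% and 11.8% were called higher and 10.4%, 7.91% and 9.69% lower. Crebbp and Ep300, the acetyltransferases bound by the first branch, were the 2 called in each comparison. Crebbp averaged 74.9 ± 8.50 CPM in siPD-L1, 77.1 ± 6.35 CPM in siNeg and 84.3 ± 14.7 CPM in D5W tumours, against 51.9 ± 0.693 CPM at day 0, with log2 differences of 0.53 ± 0.11, 0.57 ± 0.11 and 0.70 ± 0.12. Ep300 rose by 0.37 ± 0.09, 0.41 ± 0.09 and 0.47 ± 0.09 in siPD-L1, siNeg and D5W tumours. The other called in siNeg tumours was the acetyltransferase gene Kat2b (0.37 ± 0.12). The corepressor genes Ctbp1, Ctbp2 and Sin3a passed in none of the 3.

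Of 10 genes reported as targets of the family, 0 were called higher and 2 lower in siPD-L1, 3 higher and 0 lower in siNeg and 1 higher and 0 lower in D5W tumours, beside the 11.5%, 10.5% and 11.8% of all tested genes called higher and 10.4%, 7.91% and 9.69% called lower. Their medians were 0.13, 0.23 and 0.01. Smad7, an inhibitor of TGF-beta signalling, averaged 10.4 ± 2.25 CPM in siPD-L1, 13.6 ± 1.48 CPM in siNeg and 16.4 ± 4.55 CPM in D5W tumours, against 7.46 ± 0.237 CPM at day 0. It rose by 0.86 ± 0.18 in siNeg and 1.14 ± 0.19 in D5W tumours and was not called in siPD-L1 (0.48 ± 0.18). The genes lower in siPD-L1 tumours were Nos3 (-0.61 ± 0.20) and Eng (-0.26 ± 0.08), and the other 2 higher in siNeg tumours were Lgals3 (0.66 ± 0.16) and Pdgfa (0.44 ± 0.14).

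Of 7 glucocorticoid receptor targets, 4 were called higher in siPD-L1, 3 in siNeg and 3 in D5W tumours, and none lower, with medians of 0.56, 0.60 and 0.83. Over all tested genes, 11.5%, 10.5% and 11.8% were called higher and 10.4%, 7.91% and 9.69% lower. Sgk1, a kinase gene induced by the hormone, averaged 36.5 ± 13.8 CPM in siPD-L1, 45.0 ± 7.91 CPM in siNeg and 51.7 ± 10.1 CPM in D5W tumours, against 6.39 ± 0.138 CPM at day 0. The clock gene Per1 rose by 1.43 ± 0.18, 1.51 ± 0.18 and 1.44 ± 0.19, and Errfi1, an inhibitor of EGF receptor signalling, by 0.56 ± 0.10, 0.60 ± 0.10 and 0.83 ± 0.11, in siPD-L1, siNeg and D5W tumours. Nr3c1, the receptor gene itself, was not called.

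Immediate early genes, which like several Kruppel-like factors respond to stimuli within minutes to hours, had 11 of 14 called higher and 1 lower in siPD-L1, 12 higher and 1 lower in siNeg and 11 higher and 1 lower in D5W tumours, with medians of 1.78, 1.93 and 1.76. Over all tested genes, 11.5%, 10.5% and 11.8% were called higher and 10.4%, 7.91% and 9.69% lower. The summed CPM of the immediate early genes was 3098 to 5184 in siPD-L1, 4172 to 5388 in siNeg and 3697 to 4366 in D5W libraries, against 1397 to 1513 at day 0. Fosb averaged 740 ± 228 CPM in siPD-L1, 949 ± 98.5 CPM in siNeg and 885 ± 39.6 CPM in D5W tumours, against 86.7 ± 14.8 CPM at day 0, and the gene called lower was Ier3 in each comparison. In each of these lists 0 genes were called in the 3 comparisons among day 7 groups.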

How the data were processed

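RNA from 14 mouse tumour libraries was analysed. Per the labels' protocols, a Qiagen RNeasy kit and TruSeq stranded libraries were used. The submitters' processing notes name the GRCm38 build, FastQC 0.11.3, STAR, featureCounts and edgeR. For the annotation release, the strand setting and the other versions, the sources used here give nothing. The table that the authors deposited holds unnormalised read counts by Ensembl ID, the start of every value here. Of 37409 genes, 3935 had no count in any library. All 14 count columns matched a label by name.

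The edgeR package (4.0.16, in R 4.3.3) was run with filterByExpr by group, which left 17141 genes, TMM scaling, 1 robust quasi-likelihood fit of the 14 libraries and Benjamini-Hochberg adjustment over all tested genes at 0.05. SE is the log2 fold change divided by the square root of F, and intervals are 95%. Errors come from replicates, which differed beyond sampling noise in every group. Log2 CPM used a prior count of 2, and RPKM the union of exons in GENCODE M21. The pipeline was tested on simulated data. The fit had no block, because the labels do not say what a replicate number shares. Deviations from group means correlated over 0.1 in 6 of 19 same-number pairs and in 12 of 54 other-number pairs. With so few libraries per group, these counts cannot decide whether the numbers pair samples. Alternatives were other scaling, other filters, DESeq2 1.42.0, 2 groups only, a replicate block, libraries left out, and, chosen after seeing the data, a GC and length correction and the removal of mitochondrial and ribosomal RNA-like genes. Promoters came from RefSeq on GRCm38.p6 and covered 8 of 10 members, all but Klf5 and Klf10. The members, gene lists and tests were chosen with earlier results of these data known. Named genes are the 10 members, the other family genes, the 3 genes most like Klf2, Klf4, Klf6 and Klf9, and up to 4 genes of each list with the smallest p in D5W against day 0; some named genes are not reported here. Other list genes named to spell out a count of 5 or fewer were chosen after their values were seen.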

Additional observations from a re-analysis of the deposited data

Results flagged for a closer look

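The Klf9 level of siPD-L1 replicate 2, at 15.9 CPM, was far from the other siPD-L1 libraries, which had 25.7, 28.3 and 28.3 CPM. Its gap to the nearest library, as a share of the range of the group, was 0.8294, barely above Dixon's 95% critical value of 0.829. The next highest share, 0.820 for Klf11 in siPD-L1 replicate 3, was below it. Of the siPD-L1 libraries, replicate 2 also had the highest erythroid (350 CPM) and neutrophil (12.5 CPM) marker sums. Its melanocyte lineage sum was the lowest (17125.5 CPM). The part of these contents in its Klf9 level was not tested. In all, 20 sets of 4 libraries were examined in this way, and chance gives about 1 in 20.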

How the results depend on the processing

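Of 1020 alternative values, 947 kept their direction and side of the threshold, 38 lost a call, 11 gained one and 24 changed sign. None of the 19 called differences changed sign in the 316 alternatives run on them. Klf4, Klf6 and Klf11 were called against day 0 in every alternative. Of the other calls, those lost on leaving out 1 library were Klf2 in D5W (in the text), Klf7 in siNeg without any 1 of the day 0 libraries or siNeg replicate 1, 3 or 4, Klf9 in siPD-L1 without any 1 of the day 0 libraries or siPD-L1 replicate 1, 3 or 4, Klf9 in D5W without day 0 replicate 1 or 3 or D5W replicate 3, and Klf9 in siNeg without day 0 replicate 3. With 1 library left out, the members called were 4 to 5 in siPD-L1, 5 to 7 in siNeg and 5 to 6 in D5W tumours against day 0. With no low-count filter, 3 members were called in siPD-L1 against day 0 and 1 in siNeg against D5W. DESeq2 also called 1 in siNeg against D5W.

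Signs changed for small differences. Klf9 in siNeg against D5W was -0.0460 with library totals, -0.00224 with CPM above 1 in 3 libraries and -0.0502 with a replicate block, and Klf6 in siPD-L1 against D5W was -0.0240 with library totals. Without D5W replicate 3 and siPD-L1 replicate 1 together, Klf13 in siNeg against D5W was -0.00686, and in siPD-L1 against D5W Klf2 was -0.00311 and Klf11 -0.00966. With the GC and length trend removed, Klf3 in D5W against day 0 was -0.0214. With 1 library left out, siPD-L1 against day 0 ran from -0.0173 to 0.19 for Klf10 and -0.00669 to 0.13 for Klf13. siNeg against D5W ran from -0.00712 to 0.21 for Klf13, -0.21 to 0.0382 for Klf5 and -0.0987 to 0.0704 for Klf9. siPD-L1 against D5W ran from -0.10 to 0.36 for Klf2, -0.0428 to 0.19 for Klf6 and -0.26 to 0.00995 for Klf9. siPD-L1 against siNeg ran from -0.22 to 0.0589 for Klf4, -0.21 to 0.0112 for Klf7 and -0.23 to 0.00158 for Klf9. The cause of these changes was not tested.

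The replicate block called 4 members in siPD-L1, 6 in siNeg and 6 in D5W tumours against day 0 and 0 among day 7 groups; the numbers are not known to pair samples. With library totals, D5W against day 0 had 1982 genes higher and 379 lower, beside 2030 and 1661 with TMM. Klf5, at 1.10 to 3.00 CPM, has the least precision.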
